A study of Homo sapiens with 12 samples.

Results

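The genes described are 9 genes of cellular iron handling: SLC11A2, TFRC, STEAP3, NCOA4, FTH1, SLC40A1, HMOX1, ACO1 and IREB2. They were listed by function around SLC11A2, which was chosen by its lower signal with the Wee1 inhibitor than in control in an earlier pass over these arrays. Of the 9 genes, 7 had a probe set that carried their symbol alone, 18 probe sets in all, among 19775 genes tested. FTH1 and IREB2 were not analysed here. SLC11A2 and TFRC had 5 probe sets each, SLC40A1, ACO1 and STEAP3 had 2 each, and HMOX1 and NCOA4 had 1 each. The main probe set of a gene was the one with the highest mean log2 signal.

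The samples were human cells labelled PC3, a prostate cancer line, in 4 groups: 2.5 µM Wee1 inhibitor II alone, 40 nM 17-AAG alone, both drugs at those doses, and control. Wee1 inhibitor II blocks the Wee1 kinase, which restrains entry into mitosis, and 17-AAG blocks the chaperone Hsp90. The inhibitor of Wee1 was given first, 17-AAG followed 24 h later, and cells were harvested 48 h after that; controls are described as untreated in one label and as given vehicle in the treatment protocol. Each treated group had 3 arrays and the control group had 2 in the comparisons, since control replicate 2, which the labels mark for weak signal, was left out.

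Several facts of the arrays bear on every value that follows. The 11 arrays correlated at 0.913 or above with each other, while control replicate 2 correlated with them at only 0.825 to 0.833. The line label was checked against marker genes. On the 11 arrays MLANA and PMEL, known from pigment cells, read 2865 to 9916 and 3694 to 9203, the prostate gene HOXB13 reached at most 11.3, the epithelial gene EPCAM at most 26.2, and CTNNA1 and STAT3, which PC3 is known to lack through deletion, had 2559 to 5040 and 819 to 1296. These values go against the PC3 label. Control replicate 2 read the other way for these genes, with MLANA at 2.67, PMEL at 2.90, HOXB13 at 2087, EPCAM at 1096, CTNNA1 at 1.57 and STAT3 at 7.54. Other members of the epithelial and prostate lists were mixed. On the 11 arrays KRT8 read 25.8 to 45.5 and KRT18 453 to 649.7, against 615 and 2238 on control replicate 2. GRHL2 read 1.43 to 22.9 against 66.1 and FOLH1 2.81 to 8.16 against 14.0, also higher on control replicate 2. ESRP1 went the opposite way, at 142 to 728 against 48.5. For CDH1 (1.79 to 13.2 against 5.55) and KLK3 (41.8 to 90.2 against 79.9) control replicate 2 lay within the range. Hsp90 inhibitors are known to induce heat shock genes, yet on the arrays labelled 17-AAG none of 11 measured heat shock genes rose against control in limma's fit (0 at an unadjusted p under 0.05) and 5 fell, such as DNAJB1, a co-chaperone gene (log2 fold change -1.22 ± 0.09 SE, adjusted p = 0.000375). Of all genes 9.93% rose and 6.80% fell in that contrast. Of the same heat shock genes 0 rose and 6 fell with Wee1 inhibitor II, where 14.5% of all genes rose and 10.3% fell. With both drugs against control 1 rose and 3 fell, where 16.7% and 11.3% of all genes did. Against 17-AAG alone 5 rose and 0 fell with both drugs (all genes 10.9% and 8.43%). With arrays centred on their medians these were 2 and 0. Of all genes 790 then rose and 2349 fell, where 2148 and 1668 did without centring. Against Wee1 inhibitor II alone 4 rose and 0 fell with both drugs (all genes 7.27% and 6.84%). The list held 14 genes, of which HSPA8, HSPA1B and AHSA1 were not measured. The groups are called by their labels below, and whether labels were exchanged was not tested.

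Cells take up iron mostly as transferrin bound to the transferrin receptor, which TFRC encodes. In the endosome STEAP3 reduces the iron and the transporter encoded by SLC11A2, also called DMT1, moves it into the cytosol. Spare iron is stored in ferritin, NCOA4 delivers ferritin to lysosomes so that the iron is released, SLC40A1 encodes ferroportin, the exporter, and HMOX1 encodes heme oxygenase 1, which frees iron from heme. The RNA-binding proteins encoded by ACO1 and IREB2 sense iron: when it is scarce they bind hairpins called iron-responsive elements. Such binding keeps TFRC mRNA, and the SLC11A2 isoform that carries an element, from decay, and it blocks translation of the ferritin and ferroportin mRNAs. Arrays read mRNA, so changes in translation are outside these measurements.

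The hairpin is shown by its best known form, in the mRNA of the ferritin light chain FTL, whose signal is given further on. This stretch of 24 bases lies at chr19:48965335-48965358 on the plus strand of GRCh38.p14 (RefSeq), with the loop in capitals.
FTL iron-responsive element, part: ctcttgcttcaaCAGTGTttggac

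The 250 bases before the start are shown for SLC11A2 and TFRC because their signals differed most between the groups. Capitals mark ACGTG, or the same letters with G in first place, on either strand, the core that hypoxia-inducible factors bind. Both are read on the gene's strand, the minus strand of GRCh38.p14 (RefSeq), at chr12:51026385-51026634 for the first of 4 starts listed for SLC11A2 and at chr3:196082091-196082340 for the one start of TFRC.
SLC11A2: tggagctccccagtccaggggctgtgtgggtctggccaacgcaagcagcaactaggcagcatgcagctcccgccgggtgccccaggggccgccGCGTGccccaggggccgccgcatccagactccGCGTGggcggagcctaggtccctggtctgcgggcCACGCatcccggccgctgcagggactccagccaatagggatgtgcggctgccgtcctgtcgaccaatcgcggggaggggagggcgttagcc
TFRC: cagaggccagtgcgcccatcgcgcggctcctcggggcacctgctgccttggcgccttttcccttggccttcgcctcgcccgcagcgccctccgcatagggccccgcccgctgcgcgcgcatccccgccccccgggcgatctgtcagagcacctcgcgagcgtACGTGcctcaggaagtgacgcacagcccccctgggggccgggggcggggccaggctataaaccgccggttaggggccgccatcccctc
The SLC11A2 window held GCGTG 3 times, at -157, -125 and -91 from the start, the last on the opposite strand. Of the other starts listed for SLC11A2, start 2 had GCGTG at -137 only, and starts 3 and 4 lacked it. Which start these cells use was not tested. The TFRC window held ACGTG once, at -88. These are matches of letters, and of all 35116 windows of this length on either strand 32.2% held GCGTG and 18.5% held ACGTG. SLC11A2 also held CCAAT at -61 and -29 (32% of windows) and GGGCGG at -121 (42.6%), which shares 1 base with the match at -125. TFRC held GGGCGG 3 times. Neither window held CACGTG, which contains the letters matched in TFRC (6.34% of windows). Likewise neither held CATGTG (9.42% of windows). The motif TGACNNNGC of NRF2 partners was absent from both as well (10.9% of windows). Of the 7 measured genes 6 matched the table of promoters, and HMOX1 did not.

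TFRC was lower in each treated group than in control. Its main probe set, 208691_at, read 2218, 2592 and 2474 with Wee1 inhibitor II, 3868, 5158 and 3968 with 17-AAG, 3142, 3213 and 3260.2 with both drugs, and 8638 and 8753 in control. Every treated array stood below both controls, the Wee1 inhibitor II arrays were the lowest, and no groups overlapped. In log2 terms TFRC fell by 1.84 with Wee1 inhibitor II (SE 0.13, limma adjusted p = 9.16e-05), by 1.02 with 17-AAG (SE 0.13, adjusted p = 0.00243) and by 1.44 with both drugs (SE 0.13, adjusted p = 0.000151). That is 3.59-fold, 2.03-fold and 2.71-fold lower than control. These p-values come from a fit over all 19775 genes with Benjamini-Hochberg adjustment. They are no independent support, since the list was drawn up with results of these arrays known. Nothing in the labels says that replicates were separate cultures, so the p-values reflect only how far these samples lie apart, possibly for technical reasons. In whole samples fewer cells of a type and less RNA per cell cannot be told apart.

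**Figure D1:**
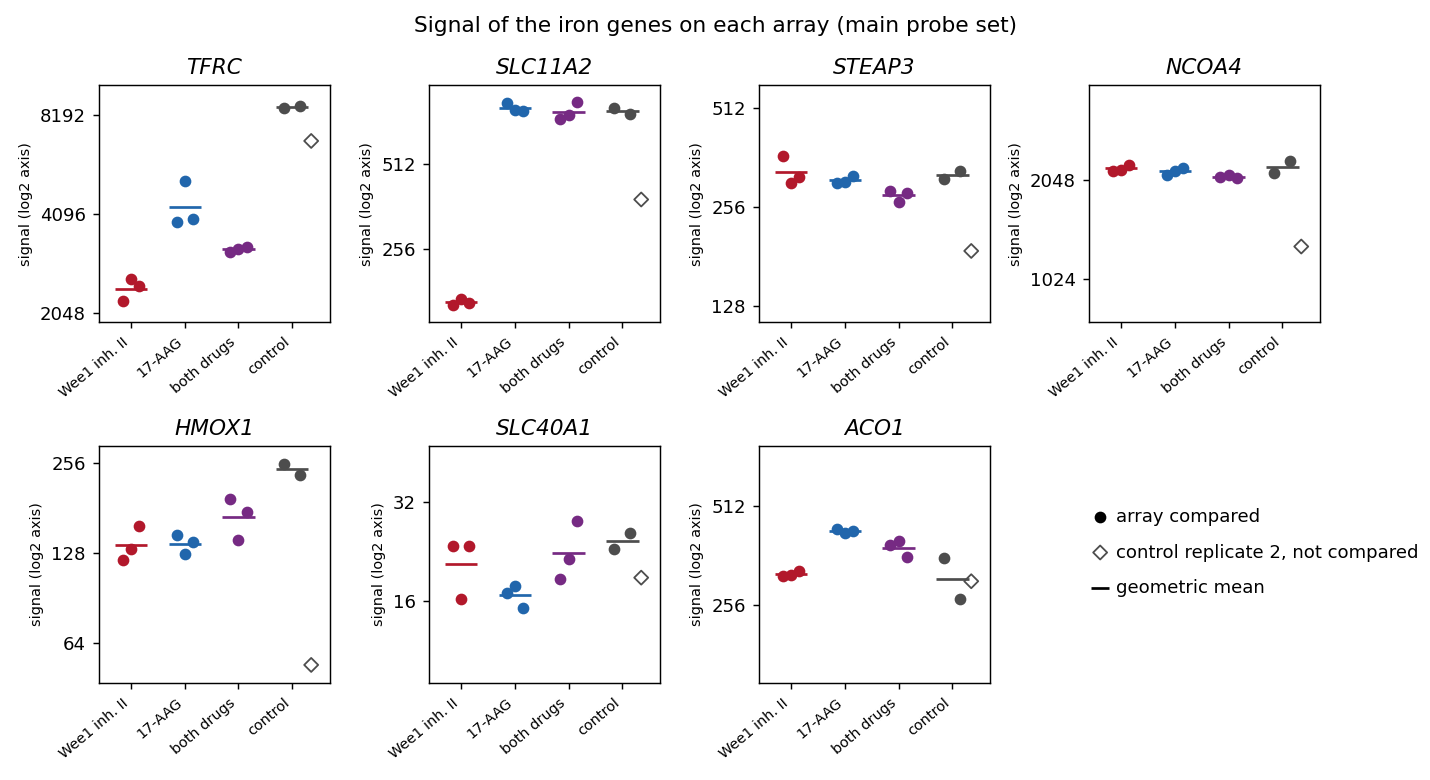
Signal of the main probe set of each iron gene on each array (log2 axis, 1 panel per gene, axes differ). Filled points are the 11 arrays compared, lines are geometric means, and open diamonds are control replicate 2. TFRC in control, at 8638 and 8753, lies above every treated array, and SLC11A2 with Wee1 inhibitor II, at 162 to 170.2, lies below every other array.

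The second probe set of TFRC, 207332_s_at, read 1161, 1147 and 1243 with Wee1 inhibitor II, 2069, 2916 and 2028 with 17-AAG, 1758, 1513 and 1628 with both drugs, and 5429 and 6133 in control. Its order of groups was that of the main probe set, with log2 fold changes against control of -2.29 ± 0.18, -1.32 ± 0.18 and -1.82 ± 0.18 (SE). The third, 237215_s_at, at 23.8 to 155 on the 11 arrays, gave -2.07 ± 0.28, -1.003 ± 0.28 and -1.43 ± 0.28, of which the 17-AAG value missed the threshold over all probe sets (adjusted p = 0.0713). The other TFRC probe sets, 237214_at and 240686_x_at, stayed at or below 19.0, near or under the array medians of 17.7 to 23.1.

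Between treated groups TFRC differed less. With both drugs it fell by 0.42 against 17-AAG alone (SE 0.12, limma adjusted p = 0.0424). That call was lost when any array other than Wee1 inhibitor II replicate 1 or 17-AAG replicate 1 was left out (-0.48 to -0.29, adjusted p up to 0.113). Against Wee1 inhibitor II alone TFRC stood at 0.40 ± 0.12 with both drugs, which missed the threshold (adjusted p = 0.0628). The array labelled 17-AAG replicate 2 was the highest of the treated arrays, and without it the change with 17-AAG was -1.15.

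SLC11A2 was lower with Wee1 inhibitor II alone and near the control level in the other groups. Its main probe set, 203124_s_at, read 162, 170.2 and 165 with Wee1 inhibitor II, 848, 797 and 794 with 17-AAG, 739, 764 and 851 with both drugs, and 810.4 and 772 in control. The Wee1 inhibitor II arrays stood far below all others, and the remaining groups overlapped. The gene was chosen for this contrast, so the value is a description: its geometric mean was 166 with Wee1 inhibitor II and 791 in control, 4.78-fold lower, with a log2 fold change of -2.26 ± 0.09 (SE). This was the 108th lowest of 19775 log2 fold changes. With both drugs the mean was 783, which is 4.73-fold above Wee1 inhibitor II alone (2.24 ± 0.08 on the log2 scale). Since that difference rests on the same Wee1 inhibitor II arrays, it is not tested either.

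The other contrasts of SLC11A2 did not pass the threshold. Those against control reuse the control arrays by which the gene was chosen. Their intervals and p-values are therefore descriptions and no independent tests. With 17-AAG alone it stood at 0.04 ± 0.09 against control (95% interval -0.16 to 0.24, limma adjusted p = 0.836). With both drugs it stood at -0.01 ± 0.09 against control (-0.22 to 0.19, adjusted p = 0.939) and at -0.05 ± 0.08 against 17-AAG alone (-0.23 to 0.13, adjusted p = 0.718).

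The second probe set of SLC11A2, 203123_s_at, read 138, 109 and 136 with Wee1 inhibitor II, 598, 710.2 and 639 with 17-AAG, 591, 641 and 572 with both drugs, and 642 and 601 in control. It showed the same separation, at -2.29 ± 0.15 for Wee1 inhibitor II against control. The third, 203125_x_at, read 75.9, 51.2 and 35.6 with Wee1 inhibitor II and 83.3 to 138 on the other 8 arrays, a smaller difference of -0.97 ± 0.32. The remaining probe sets, 237106_at and 210047_at, read at most 35.3 and 13.6. Averaging all 5 probe sets gave -1.45 for the Wee1 inhibitor II contrast. Which SLC11A2 isoforms each probe set reads, and so whether the mRNA with an iron-responsive element is among them, was not tested.

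**Figure D2:**
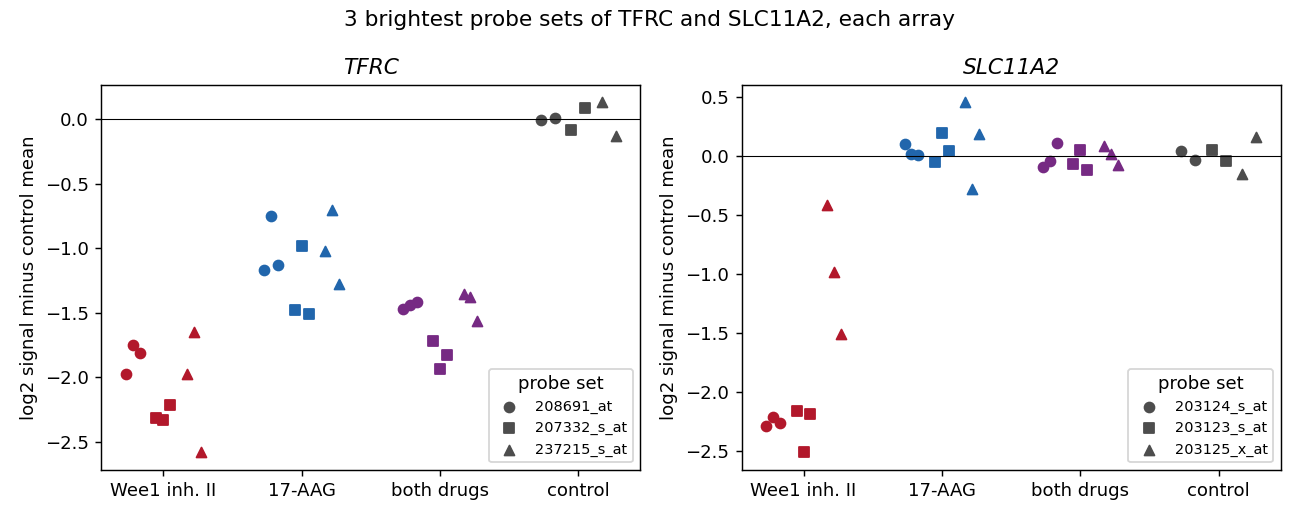
Log2 signal minus the control mean of the same probe set, for the 3 brightest probe sets of TFRC and SLC11A2, with 1 point per array compared. For TFRC all treated arrays lie below the control points on all 3 probe sets, while for SLC11A2 the clear separation is that of Wee1 inhibitor II on 203124_s_at and 203123_s_at.

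STEAP3, the endosomal reductase gene, passed limma's test in none of the 6 contrasts (1 at an unadjusted p under 0.05, both drugs against Wee1 inhibitor II). It read 365, 303 and 314 with Wee1 inhibitor II, 303, 305 and 318 with 17-AAG, 286, 265 and 281 with both drugs, and 312 and 328 in control. On this main probe set, 218424_s_at, the arrays with both drugs were the lowest of the 4 groups and did not overlap them. The difference from control was -0.21 ± 0.10 (95% interval -0.43 to 0.02, limma adjusted p = 0.169). The other probe set, 1554830_a_at, did not show that order. It read 20.7 to 35.2 with 17-AAG and 27.6 to 36.0 with both drugs, with a difference between them of 0.18 ± 0.20.

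NCOA4, the receptor for ferritin breakdown, varied little between the groups. It read 2187, 2202 and 2275 with Wee1 inhibitor II, 2121, 2186 and 2229 with 17-AAG, 2095, 2117 and 2070.5 with both drugs, and 2154 and 2345 in control. The range over all 11 arrays was 2070.5 to 2345, and none of the 6 contrasts passed limma's test, with 0 at an unadjusted p under 0.05. The 95% intervals against control ran from -0.19 to 0.15 for Wee1 inhibitor II, from -0.22 to 0.13 for 17-AAG and from -0.27 to 0.07 for both drugs.

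SLC40A1, the exporter gene, was close to the array medians. Its main probe set, 233123_at, read 23.6, 16.3 and 23.6 with Wee1 inhibitor II, 17.0, 17.8 and 15.3 with 17-AAG, 18.7, 21.6 and 28.0 with both drugs, and 23.1 and 25.8 in control. The 17-AAG arrays lay below control, but the difference of -0.55 ± 0.21 missed the threshold (limma adjusted p = 0.131), and at this signal a fold change is rough. The other probe set, 223044_at, read 0.341 to 14.4 on the 11 arrays.

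HMOX1, the heme oxygenase gene, was lower in each treated group than in control. It read 121, 132 and 158 with Wee1 inhibitor II, 148, 127 and 140.0 with 17-AAG, 194, 141 and 176 with both drugs, and 255 and 235 in control. All treated arrays lay below both controls, and the treated groups overlapped one another. HMOX1 fell by 0.84 with Wee1 inhibitor II (SE 0.16, limma adjusted p = 0.00671), by 0.83 with 17-AAG (SE 0.16, adjusted p = 0.0114) and by 0.53 with both drugs (SE 0.16, adjusted p = 0.0416). The first was lost without control replicate 1 (-0.78), and the second without control replicate 1 (-0.76) or 3 (-0.89). The third was lost without any array other than Wee1 inhibitor II replicate 1 or 3 or both drugs replicate 1 (-0.60 to -0.41). With control replicate 2 included, where HMOX1 read 54.2, the changes were -0.12, -0.10 and 0.19, so the last turned its sign.

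ACO1, the gene of the sensor that is cytosolic aconitase when iron is plentiful, was higher with 17-AAG. Its main probe set, 207071_s_at, read 315, 316 and 325 with Wee1 inhibitor II, 436, 425 and 431 with 17-AAG, 391, 402 and 358 with both drugs, and 357 and 267 in control. The 17-AAG arrays were the highest and overlapped no other group, while the 2 controls lay apart from each other. ACO1 rose by 0.48 with 17-AAG (SE 0.12, limma adjusted p = 0.0315). That call was lost when any of the 3 arrays with 17-AAG alone was left out. It was also lost without control replicate 3, Wee1 inhibitor II replicate 3 or both drugs replicate 1. In the fits that lost it the change was 0.27 to 0.49, lowest without control replicate 3. With both drugs ACO1 stood at 0.31 ± 0.12 (adjusted p = 0.102) and with Wee1 inhibitor II at 0.05 ± 0.12 (adjusted p = 0.848).

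The second probe set of ACO1, 237622_at, separated the groups more clearly. It read 59.6, 53.7 and 66.9 with Wee1 inhibitor II, 95.9, 94.0 and 104 with 17-AAG, 90.9, 83.1 and 86.5 with both drugs, and 52.2 and 51.9 in control. Both groups with 17-AAG lay above both groups without it. In the fit over all probe sets it rose by 0.91 ± 0.13 with 17-AAG (limma adjusted p = 0.00727) and by 0.74 ± 0.13 with both drugs (adjusted p = 0.0055) against control, and by 0.54 ± 0.11 with both drugs against Wee1 inhibitor II (adjusted p = 0.028).

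Against control, 3 of the 7 genes were called with each single drug and 2 with both drugs. With Wee1 inhibitor II 0 of 7 were called higher and 3 lower (SLC11A2, TFRC and HMOX1), where 24.9% of all genes were called, 14.5% higher and 10.3% lower. No gene of the 7 was higher there at an unadjusted p under 0.05 either. With 17-AAG 1 was called higher (ACO1) and 2 lower (TFRC and HMOX1), against 16.7% of all genes, 9.93% higher and 6.80% lower. With both drugs 0 were called higher and 2 lower (TFRC and HMOX1), against 28.0% of all genes, 16.7% higher and 11.3% lower; at an unadjusted p under 0.05, 1 was higher (ACO1). Nothing is read from these shares, because the list was built around a value of the first contrast and the 3 contrasts share their control arrays. The median log2 fold change of the 7 genes was -0.23, -0.05 and -0.12 in these contrasts, and that of all genes was 0.12, 0.01 and 0.11.

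**Figure D3:**
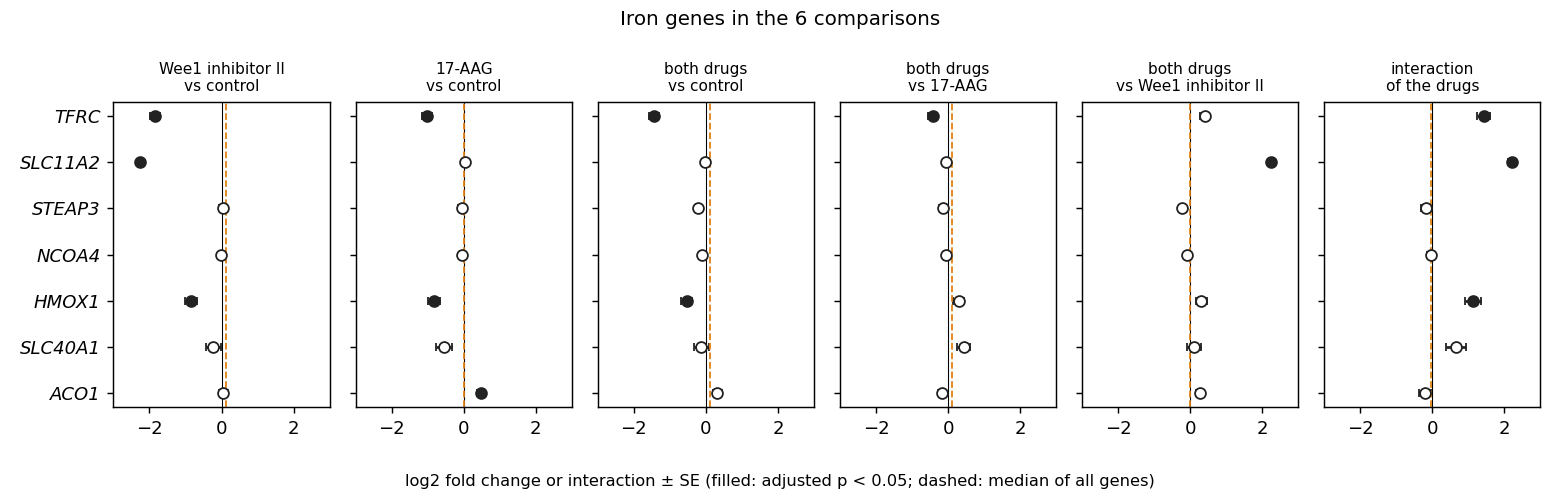
Log2 fold change, or interaction, of the 7 iron genes in the 6 contrasts, with SE bars. Filled points had an adjusted p under 0.05, and the dashed line is the median of all genes. TFRC lies at -1.84, -1.02 and -1.44 in the 3 contrasts with control, and STEAP3 and NCOA4 have no filled point.

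Between the treated groups 1 of the 7 genes was called in each contrast, and nothing is read from these counts. With both drugs against 17-AAG alone 0 were called higher and 1 lower (TFRC), where 19.3% of all genes were called, 10.9% higher and 8.43% lower; at an unadjusted p under 0.05, 0 were higher. With both drugs against Wee1 inhibitor II alone 1 passed the threshold as higher and 0 as lower. The 1 was SLC11A2, which was chosen by these Wee1 inhibitor II arrays, so that its call is no test. Of all genes 14.1% were called there, 7.27% higher and 6.84% lower. At an unadjusted p under 0.05 by limma, 3 were higher (SLC11A2, TFRC and ACO1) and 1 was lower (STEAP3). TFRC, HMOX1 and ACO1 were also above their Wee1 inhibitor II means there, at 0.40, 0.31 and 0.27, without passing the test.

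The interaction asks whether both drugs together gave what the single changes add up to on the log2 scale, with a positive value where the combination lay above that sum. It was positive and called for 3 of 7 genes (TFRC, HMOX1 and SLC11A2, the last of which is no test) and negative and called for 0, where 11.8% of all genes were called, 4.82% positive and 6.97% negative. None was negative at an unadjusted p under 0.05, and the control arrays enter every interaction. For TFRC the single changes summed to -2.86 and both drugs gave -1.44, an interaction of 1.42 ± 0.18 (SE, limma adjusted p = 0.00292). For HMOX1 they summed to -1.67 and both drugs gave -0.53, an interaction of 1.13 ± 0.22 (adjusted p = 0.0149), which was lost without control replicate 1 (1.07, adjusted p = 0.0604), with arrays centred on their medians (1.16, adjusted p = 0.0530) and with control replicate 2 included (0.41, adjusted p = 0.849). For SLC11A2 they summed to -2.22 and both drugs gave -0.01, an interaction of 2.20 ± 0.12, given as a description because it contains the contrast the gene was chosen for. With its 5 probe sets averaged that value was 0.997, and with control replicate 2 included it was 1.86. SLC40A1 stood at 0.66 ± 0.29 (adjusted p = 0.202), ACO1 at -0.21 ± 0.16 (adjusted p = 0.493), STEAP3 at -0.18 ± 0.13 (adjusted p = 0.461) and NCOA4 at -0.04 ± 0.10 (adjusted p = 0.858).

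**Figure D4:**
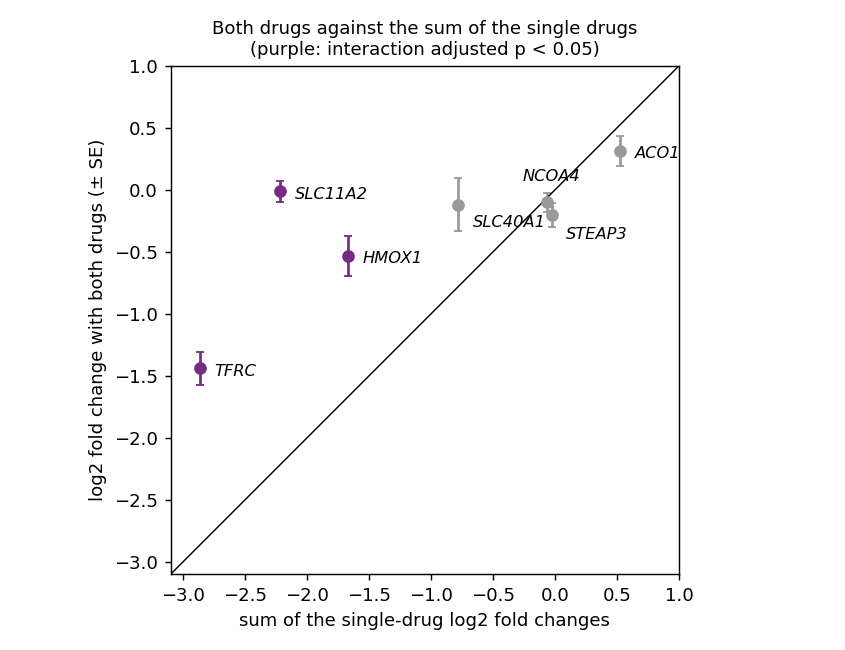
Log2 fold change with both drugs against control (SE bars) over the sum of the log2 fold changes with each drug alone, 1 point per iron gene. The diagonal marks a combination equal to that sum, and purple points had an interaction with adjusted p under 0.05. SLC11A2, TFRC and HMOX1 lie above the diagonal by 2.20, 1.42 and 1.13.

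Other genes moved with these groups too. The summed signal of the pigment cell markers (6 of 7 measured) was 25705 to 28256 with Wee1 inhibitor II, 39321 to 44640.5 with 17-AAG, 46545 to 48136 with both drugs and 31680.2 to 33240.3 in control. MITF, the regulator of pigment cells, was lower with Wee1 inhibitor II (-0.77 ± 0.11, limma adjusted p = 0.00198) and higher with both drugs than with Wee1 inhibitor II alone (1.39 ± 0.10, adjusted p = 9.36e-05). The pigment list did not move as one: with Wee1 inhibitor II 1 of the 6 rose, the tyrosinase gene TYR (0.79 ± 0.14, adjusted p = 0.00457), and 3 fell, while 5 and 6 of 6 rose with 17-AAG and with both drugs. Of all genes 14.5%, 9.93% and 16.7% rose in these contrasts, and 10.3%, 6.80% and 11.3% fell. The summed fibroblast markers (4 of 4 measured) were 407 to 455 with Wee1 inhibitor II, 1769 to 1892 with 17-AAG, 754 to 822 with both drugs and 1074 to 1205 in control. The matrix gene LUM made up most of that sum and stood at -1.73 ± 0.10 with Wee1 inhibitor II (adjusted p = 4.88e-05). The summed epithelial markers (6 of 6 measured) were 662 to 832 with Wee1 inhibitor II, 834 to 907 with 17-AAG, 1274 to 1360 with both drugs and 804 to 867 in control. With both drugs 1 of the 6 was called higher against control, ESRP1 (1.21 ± 0.19, adjusted p = 0.00175), and 0 lower. The prostate markers (3 of 5 measured) summed to 74.1 to 108 with Wee1 inhibitor II, 50.6 to 67.1 with 17-AAG, 85.4 to 98.5 with both drugs and 50.3 to 70.7 in control. The blood markers (4 of 6 measured) summed to 63.1 to 73.1 with Wee1 inhibitor II, 65.0 to 78.9 with 17-AAG, 62.2 to 68.2 with both drugs and 58.9 to 65.2 in control, with CD14 at 2.03 or less. The 3′ minus 5′ gap of the array control for ACTB, a measure of RNA and labelling quality, was 0.68 ± 0.09 with Wee1 inhibitor II, 0.96 ± 0.08 with 17-AAG, 0.96 ± 0.05 with both drugs and 0.69 ± 0.03 in control (log2, SD, n = 3, 3, 3 and 2), while that of GAPDH was between -0.09 and 0.01 on every array compared. The part of these differences in the iron gene values was not tested.

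Among 20 other genes of iron uptake and the endosome, all measured, 2 rose and 4 fell with Wee1 inhibitor II, 1 rose and 1 fell with 17-AAG, and 3 rose and 4 fell with both drugs. Of all genes 24.9%, 16.7% and 28.0% were called in these contrasts, and nothing is read from the list's own shares. Its medians were 0.01, -0.12 and 0.20, against 0.12, 0.01 and 0.11 for all genes. CYBRD1, a ferric reductase gene, read 527, 495 and 561 with Wee1 inhibitor II, 192, 164 and 240.3 with 17-AAG, 425, 386 and 398 with both drugs, and 106 and 104 in control. All treated arrays lay above control, and it rose by 2.33 ± 0.15, 0.91 ± 0.15 and 1.94 ± 0.15 (limma adjusted p = 6.25e-05, 0.00582 and 6.71e-05), with an interaction of -1.29 ± 0.20 (adjusted p = 0.00638). SLC39A8, which encodes the metal importer ZIP8, read 282, 281 and 279 with Wee1 inhibitor II, 1079, 1028 and 1158 with 17-AAG, 361, 315 and 337 with both drugs, and 1084 and 955 in control. It was low in both groups that had Wee1 inhibitor II, at -1.86 ± 0.10 alone (adjusted p = 3.09e-05) and -1.59 ± 0.10 with both drugs (adjusted p = 2.47e-05). STEAP1, of the metalloreductase family of STEAP3, fell by 1.30, 0.66 and 1.44 against control (SE 0.16 each, adjusted p = 0.000897, 0.0267 and 0.00037), and the 17-AAG call was lost when arrays were centred on their medians (adjusted p = 0.0891).

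**Figure D5:**
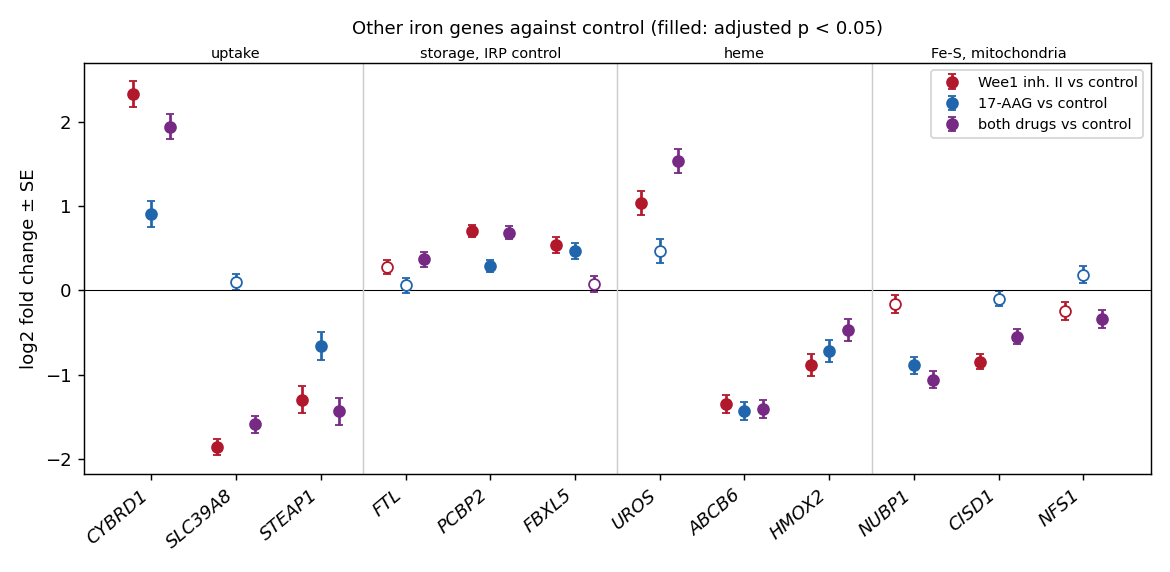
Log2 fold change against control (SE bars) of named genes of the other iron lists, in 4 blocks: uptake, storage and IRP control, heme, and mitochondria with iron-sulfur clusters. Filled points had an adjusted p under 0.05. CYBRD1 lies highest at 2.33 with Wee1 inhibitor II and SLC39A8 lowest at -1.86.

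Of 16 measured genes of storage, iron chaperones, export and control of the iron sensors (18 listed), 4 rose and 2 fell with Wee1 inhibitor II, 4 rose and 0 fell with 17-AAG, and 5 rose and 0 fell with both drugs (0 and 1 lower at an unadjusted p under 0.05 by limma). Of all genes 14.5% rose and 10.3% fell with Wee1 inhibitor II, 9.93% and 6.80% with 17-AAG, and 16.7% and 11.3% with both drugs. The list's medians were 0.28, 0.05 and 0.30, and those of all genes 0.12, 0.01 and 0.11. FTL, the ferritin light chain whose element is printed above, read 10001, 10062 and 10603 with Wee1 inhibitor II, 8072, 9479.6 and 8846 with 17-AAG, 10989, 11075 and 10579 with both drugs, and 8336 and 8529 in control. Its rise of 0.37 ± 0.09 with both drugs (limma adjusted p = 0.0148) shrank to 0.13 after quantile normalisation (adjusted p = 0.210) and 0.17 with arrays centred on their medians (adjusted p = 0.337). PCBP2, an iron chaperone that loads ferritin, rose by 0.71 ± 0.07 with Wee1 inhibitor II, 0.29 ± 0.07 with 17-AAG and 0.69 ± 0.07 with both drugs (adjusted p = 0.000364, 0.0289 and 0.000259). The 17-AAG call of PCBP2 was lost after quantile normalisation (adjusted p = 0.0646) and with centred arrays (adjusted p = 0.121). FBXL5, the subunit of a ubiquitin ligase that marks the IREB2 protein for breakdown when iron is plentiful, read 1078, 1247 and 1236 with Wee1 inhibitor II, 1132, 1093 and 1159.8 with 17-AAG, 859, 810.4 and 911 with both drugs, and 802 and 831 in control. It rose by 0.54 ± 0.10 and 0.47 ± 0.10 with the single drugs (adjusted p = 0.00451 and 0.0129) and had an interaction of -0.93 ± 0.13 (adjusted p = 0.00413). With centred arrays both single-drug calls were lost (0.31 and 0.48, adjusted p = 0.163 and 0.0646).

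Of 23 measured heme genes (25 listed), 5 rose and 5 fell with Wee1 inhibitor II, 3 rose and 2 fell with 17-AAG, and 7 rose and 3 fell with both drugs. Of all genes 24.9%, 16.7% and 28.0% were called in these contrasts, and the list's medians were -0.03, 0.06 and 0.00. ABCB6, a porphyrin transporter gene, read 147, 131 and 132 with Wee1 inhibitor II, 119, 137 and 132 with 17-AAG, 133, 136 and 125 with both drugs, and 374 and 324 in control. The treated groups overlapped one another and lay far below control, at -1.35, -1.43 and -1.41 (SE 0.11 each, limma adjusted p = 0.00013, 0.000346 and 6.15e-05), with an interaction of 1.37 ± 0.14 (adjusted p = 0.00149). HMOX2, the second heme oxygenase gene, read 342, 338 and 339 with Wee1 inhibitor II, 377, 429 and 345 with 17-AAG, 387, 497 and 479 with both drugs, and 621 and 635 in control. Like HMOX1 it lay below control on every treated array, with an interaction of 1.13 ± 0.18 (adjusted p = 0.00637). UROS, an enzyme gene of heme synthesis, rose by 1.03 ± 0.14 with Wee1 inhibitor II and 1.54 ± 0.14 with both drugs (adjusted p = 0.00142 and 0.000146).

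Of 26 measured genes of mitochondrial iron and iron-sulfur cluster assembly (30 listed), 1 rose and 8 fell with Wee1 inhibitor II, 1 rose and 4 fell with 17-AAG, and 4 rose and 7 fell with both drugs. Of all genes 10.3%, 6.80% and 11.3% fell and 14.5%, 9.93% and 16.7% rose there. The list's medians were -0.18, -0.10 and -0.21. NUBP1, a scaffold gene of cytosolic cluster assembly, read 498, 503 and 472 with Wee1 inhibitor II, 288, 324 and 278 with 17-AAG, 240.03, 283 and 269 with both drugs, and 538 and 562 in control. It fell where 17-AAG was given, by 0.89 ± 0.10 alone and 1.06 ± 0.10 with both drugs (limma adjusted p = 0.00151 and 0.000185). CISD1, which encodes an iron-sulfur protein of the outer mitochondrial membrane, fell by 0.85 ± 0.09 with Wee1 inhibitor II and 0.55 ± 0.09 with both drugs (adjusted p = 0.000414 and 0.00216).

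HMOX1 is a known target of the activator NRF2, which NFE2L2 encodes, and of the heme-sensing repressor BACH1. The list taken here held NRF2 target genes and also genes of regulators and their partners (NFE2L2, KEAP1, BACH1, BACH2, MAFG and MAFF). Of its 15 measured genes (16 listed), 5 rose and 3 fell with Wee1 inhibitor II, 3 rose and 5 fell with 17-AAG, and 2 rose and 6 fell with both drugs. Of all genes 24.9%, 16.7% and 28.0% were called, and the list's medians were 0.03, -0.13 and -0.02. SLC7A11, the cystine transporter gene, rose by 1.38, 1.31 and 1.85 (SE 0.26 each, limma adjusted p = 0.00635, 0.0126 and 0.00122). SRXN1, which encodes sulfiredoxin, fell by 0.68, 0.93 and 1.22 (SE 0.10 each, adjusted p = 0.00152, 0.000952 and 7.24e-05). The list thus held genes that rose and genes that fell in each contrast with control. With arrays centred on their medians or quantile normalised, no called gene of these 5 lists turned its direction, but the counts depended on the scaling. With centred arrays and both drugs the iron-sulfur list had 0 higher and 9 lower, and the storage list 2 higher and 1 lower. Of all 19775 genes 1933 were then higher and 2805 lower, where 3306 and 2233 were without centring. With 17-AAG the storage list then had 1 higher and 0 lower, and the heme list 0 higher and 2 lower. All genes had 1404 higher and 800 lower there, where they had 1964 and 1345 without centring. Nothing is read from the lists' counts. The uptake list with both drugs kept 3 higher and 4 lower.

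The genes whose log2 signal ran most like SLC11A2 over the 11 arrays were HSPA4L (Pearson r = 0.989), C21orf91 (0.988), SLC18B1 (0.985) and TBC1D16 (0.984), among 8277 genes with a geometric mean signal of at least 100. HSPA4L, of the heat shock protein 110 family, averaged 35.0 with Wee1 inhibitor II, 169.8 with 17-AAG, 166 with both drugs and 152 in control. For TFRC they were LRRC58 and ATP6V1C1 (both 0.985), PAICS and SRPRB (both 0.983), and for HMOX1 THAP1 (0.951), CAMSAP2 (0.934), ZMPSTE24 (0.930) and CSK (0.928). These correlations describe 11 arrays in 4 groups that share treatment and labelling, and they carry no test.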

How the data were processed

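Total RNA of 12 samples was labelled by in vitro transcription from the 3′ end and read on Affymetrix arrays, per the labels' protocols. The deposited values are linear intensity values for each probe set, and per the submitters' processing notes the authors used Partek 6.5 and RMA. The order of those steps is not given in the sources used here. The values run from 0.0212 to 17908 and each array's 2% trimmed mean is 150.02. The medians of the 11 arrays run from 17.7 to 23.1, so the deposited values are not quantile normalised between arrays. They were log2 transformed here without further normalisation.

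Of 54675 probe sets, 62 were array controls, 41091 named 1 gene, 1801 several and 11721 none in the platform annotation, whose symbols were updated through gene IDs except for 42. For each of 19775 genes the probe set with the highest mean log2 signal over 11 arrays was kept. Group means were fitted with limma 3.58.1 in R 4.3.3 (lmFit, contrasts.fit, eBayes, 7 residual degrees of freedom), p-values were adjusted by the Benjamini-Hochberg method over all genes, and genes were called at an adjusted p under 0.05. The number of arrays limits the precision, and no detection calls were used. Array controls for TFRC were not used here, so transcript position was read for ACTB and GAPDH alone.

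The members and all lists were chosen with earlier results of these data known. Named genes were the listed iron genes, markers, the 4 genes most like SLC11A2, TFRC and HMOX1, and genes taken from the other lists. For the last, up to 3 called genes per list and contrast with the largest change at a mean signal of at least 100 were drawn. Only some of those drawn are described, and some left out had larger changes than some described. Alternatives were quantile normalisation, median centring, the replicate number as a block, control replicate 2 included, trended and robust variances, array weights, other uses of the probe sets, filters on dim signals, only the arrays compared, and each array left out in turn.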

Additional observations from a re-analysis of the deposited data

Results flagged for a closer look

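The change with Wee1 inhibitor II differed with and without 17-AAG for TFRC, with an interaction, tested as one term of the fit, of 1.42 (log2). That of HMOX1 was 1.13, but its call was lost without control replicate 1 (1.07), with arrays centred on their medians (1.16) and with control replicate 2 included (0.41). That of SLC11A2, chosen for one of its parts and so given as a description, was 2.20, and it was 0.997 with its probe sets averaged. SLC11A2 stood at -0.05 for Wee1 inhibitor II on top of 17-AAG and at -2.26 for the inhibitor against control, TFRC at -0.42 and -1.84, and HMOX1 at 0.29 and -0.84.

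The array left out of the comparisons carried a signal that the others lacked. On control replicate 2 the SLC40A1 probe set 223044_at read 185.8, against 0.341 to 14.4 on the 11 arrays, while the main SLC40A1 probe set read 18.9 there.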

How the results depend on the processing

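Of the 13 called results of the iron genes, with 283 alternative values, 234 kept their direction and side of the threshold, 48 lost the call and 1 reversed. The reversed value was HMOX1 with both drugs against control, at 0.19 with control replicate 2 included. Of 29 results that were not called, 14 of 628 alternative values were called and 26 changed sign. 3 of the 13 are SLC11A2 values that rest on the arrays it was chosen by, so their stability supports nothing: over the alternatives they ran from -2.48 to -1.45 (Wee1 inhibitor II against control), from 1.48 to 2.28 (both drugs against Wee1 inhibitor II) and from 0.997 to 2.25 (interaction). TFRC kept its calls with Wee1 inhibitor II and with both drugs against control in every alternative, and with 17-AAG it lost the call when only the arrays compared were fitted (adjusted p = 0.0748). Leaving out 1 array in turn gave 2 to 3, 1 to 3, 1 to 2, 0 to 1, 1 to 2 and 2 to 3 iron genes called for Wee1 inhibitor II, 17-AAG and both drugs against control, both against 17-AAG, both against Wee1 inhibitor II and the interaction, and 3225 to 4891, 1705 to 3159, 4009 to 5494, 2739 to 3590, 1996 to 2819 and 1350 to 2223 genes in all. With 1 control array left, that array is assumed to vary like the other groups. With control replicate 2 included, 1 iron gene was called with 17-AAG against control, 1 with both drugs against control, 0 with both against 17-AAG and 1 in the interaction, and genes in all numbered 1268, 480, 1856, 542, 389 and 119 in the order above. When only the arrays compared were fitted, 17-AAG against control had 0 genes called and 0 iron genes by limma (4816 genes at an unadjusted p under 0.05), Wee1 inhibitor II against control had 2461, both drugs against control had 1 iron gene and both against 17-AAG had 0. Averaging the probe sets of each gene gave 3215, 1768, 2370, 1664 and 1099 genes (Wee1 inhibitor II and 17-AAG against control, both against 17-AAG, both against Wee1 inhibitor II, interaction), with 0 iron genes for both against 17-AAG and 2 for both against Wee1 inhibitor II. Both against Wee1 inhibitor II also had 2 iron genes after quantile normalisation, with trended and robust variances, with array weights and without the dimmest 40% of genes, and 3 with signals below 32 set to 32. In each of these settings SLC11A2, whose call there is no test, was among them. After quantile normalisation 1511 of all genes were higher and 1445 lower in that contrast. All-gene counts are not given here for every setting, so nothing is read from the counts of iron genes. Every probe set tested gave 8948 calls and 1 iron gene for both drugs against control and 0 iron genes for both against 17-AAG. The interaction had 3558 genes without the dimmest 40% and 3790 with the floor of 32. Centring each array on its median gave 2204 genes for 17-AAG against control and 1255 for the interaction. It moved the median of all genes for Wee1 inhibitor II against control to -0.11, where it was 0.12, and the share of higher calls to 33.4%, where it was 58.5%. That share became 40.8%, where it was 59.7%, for both drugs against control, and 25.2%, where it was 56.3%, for both against 17-AAG. Deviations from the group means correlated at -0.137 to 0.0958 between samples with the same replicate number (15 correlations). The 2 control arrays deviate as mirror images by construction, and the other groups have 3 arrays each. These correlations therefore cannot decide whether the numbers pair samples. With the replicate block the interaction had 1483 genes, both drugs against control had 1 iron gene (HMOX1 at -0.46, adjusted p = 0.085), and ACO1 with 17-AAG lost its call (0.47, adjusted p = 0.0638). The causes of these differences were not tested. Signals near the array medians, as for SLC40A1, limit what can be read from it.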
